A study of Mus musculus with 6 samples.

Results

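The genes described here are 37 genes of lysosomal acidification and degradation, chosen by symbol from the 52550 genes of a deposited RNA sequencing table. They are 15 genes of the vacuolar proton pump (the V-ATPase and its accessory subunits), 9 cathepsins, 7 hydrolases and lipid-handling proteins, 3 lysosomal membrane proteins, and the 3 regulators of the MiT/TFE family Tfeb, Tfe3 and Mitf. All 37 were found, each on 1 row, and all 37 were among the 16402 genes with enough counts to be tested. Their levels were compared between 3 libraries from MSR1 KO mice and 3 libraries from MSR1 WT mice. MSR1 is a class A scavenger receptor that takes up modified lipoproteins and other polyanionic ligands. In both groups, bone marrow cells of C57BL/6 mice were turned into macrophages by 7 days of culture with 25 ng/ml M-CSF, and were then kept for 48 h in a transwell with bone marrow stem cells (BMSCs) in a study that asked about the osteogenic differentiation of BMSCs and the M2-like polarization of the macrophages. Macrophages without BMSCs were not analysed here, so every value belongs to the co-culture. The study describes the 3 libraries of each genotype as biological replicates. The age of the mice, and whether each library came from its own mouse, are not given in the sources used here, so the p-values measure the spread between these libraries.

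The lysosome degrades what macrophages take up by phagocytosis, by scavenger receptors and by autophagy. The V-ATPase pumps protons into it: the cytosolic V1 sector hydrolyses ATP and turns a rotor that drives protons through the V0 sector in the membrane, and the acid lumen then matures and activates cathepsins and other hydrolases. TFEB, TFE3 and MITF are transcription factors that bind E-box sequences near many lysosomal genes, and they are controlled largely by phosphorylation and by their place in the cell.

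Total counts ranged from 36143518 to 47417448 per library. Values are given as CPM, which are counts scaled to a common library size by the TMM method, with the SD over 3 libraries. Genes were called at an adjusted p under 0.05 from edgeR's quasi-likelihood test, adjusted by the Benjamini-Hochberg method over the 16402 tested genes. Every adjusted p below comes from that test, except where DESeq2 or another fit is named. Fits without the count filter or with a library left out tested other numbers of genes. Msr1 itself fell by 2.02 on the log2 scale (SE 0.14, adjusted p = 0.00124), from 7543, 9163 and 9219 counts in MSR1 WT to 2118, 1825 and 2000 counts in MSR1 KO libraries. Macrophage markers were abundant in both groups, with Lyz2 at 13391 ± 654 CPM in MSR1 KO and 14904 ± 1435 CPM in MSR1 WT libraries (SD, n = 3 each) and Csf1r at 4536 ± 24.3 against 4410.3 ± 88.1 CPM (SD, n = 3 each). Of 9 such markers, Fcgr1, an Fc receptor, was called higher (log2 fold change 1.14, SE 0.17, adjusted p = 0.0182), Mrc1, the mannose receptor, was called lower (-0.39, SE 0.081, adjusted p = 0.0369), and 7 were not called.

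Most lysosomal genes were at similar levels in both genotypes, while 5 of the 37 were called, in both directions. Atp6v0a1, a membrane subunit of the proton pump, and the cysteine proteases Ctsl and Ctsf were lower in MSR1 KO macrophages, whereas the protease Ctsc and the cholesterol carrier Npc2 were higher. The 2 genes called higher stood beside 2.25% of all tested genes (369) called in that direction, and the 3 called lower beside 2.66% (436). With the definition of a DEG used in the study, which asks for more than a 1.5-fold difference and p under 0.05 before adjustment, 0 members were higher (3.59% of tested genes) and 2 members, Atp6v0a1 and Ctsf, were lower (5.05% of tested genes). All 3 MSR1 KO values lay above all 3 MSR1 WT values for 6 members (12.1% of tested genes) and below them for 9 members (13.4% of tested genes). The log2 fold change lay within 0.25 of 0 for 29 of the 37 members, and its median was -0.02, against -0.00 over all tested genes. Together the 37 genes took 5.98% of the counts in MSR1 KO and 6.06% in MSR1 WT libraries, with a range of 5.68% to 6.32% over the 6 libraries. In bulk RNA, fewer cells of a type and less RNA per cell cannot be told apart.

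**Figure D1:**
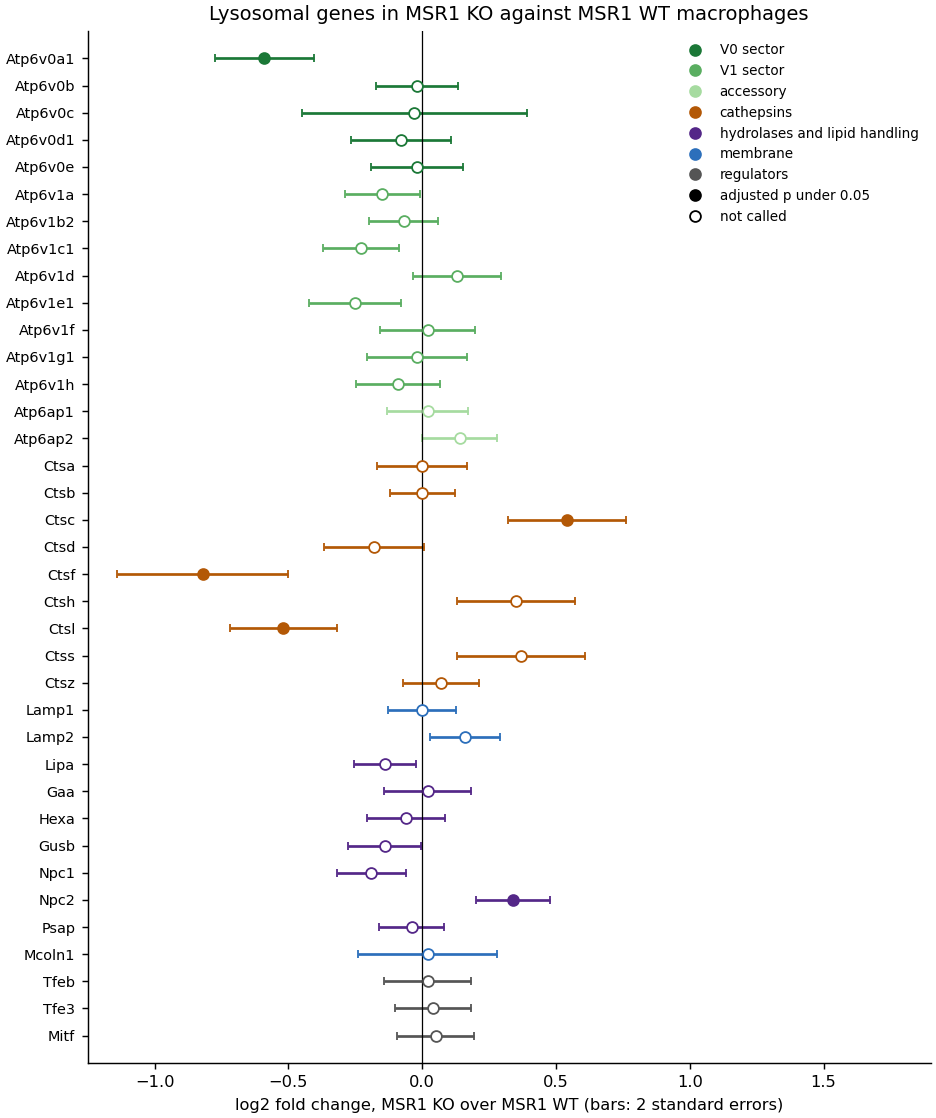
Log2 fold change (MSR1 KO over MSR1 WT) of each of the 37 lysosomal genes on the x axis, coloured by class, with bars of 2 standard errors and filled points for an adjusted p under 0.05. Atp6v0a1, Ctsf and Ctsl stand to the left of 0 and Ctsc and Npc2 to the right, and 29 of the 37 points lie within 0.25 of 0.

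The levels spanned a wide range. By CPM, Psap held rank 1, Ctsb rank 2 and Ctsd rank 5 among all genes of the table. Different genes were compared per length, as TPM (counts per exonic base, scaled to the same sum in each library) computed from counts and the exonic length in GENCODE vM21. On that scale Psap, the precursor of the saposins that help degrade sphingolipids, was at 17151 TPM over the 6 libraries, followed by the aspartic protease Ctsd (13359 TPM), the cysteine proteases Ctsb (7772 TPM) and Ctss (6797 TPM), and the membrane glycoprotein Lamp1 (3414 TPM). The order of these 5 genes was the same with the length of the principal transcript in place of all exons. The pump subunits were lower and ranged from Atp6v0c at 416 TPM to Atp6v1h at 22.3 TPM. Tfe3 was at 69.1 TPM, Mitf at 61.4 TPM and Tfeb at 31 TPM. Lower in the order the values depended on the length used. With the principal transcript Atp6v0c was at 928 TPM and Atp6v1h at 82.6 TPM, Atp6v1d was the lowest pump subunit at 72.6 TPM, and Tfeb (59.6 TPM) was close to Mitf (60.7 TPM). Ctsf was the lowest of the 37 by both lengths, at 8.3 TPM by exonic length and 16.5 TPM with the principal transcript. Thus, of the 5 called genes, Ctsc, Npc2 and Ctsl were among the more abundant members (786, 658 and 658 TPM), whereas Atp6v0a1 (81.2 TPM) and Ctsf were among the less abundant ones.

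**Figure D2:**
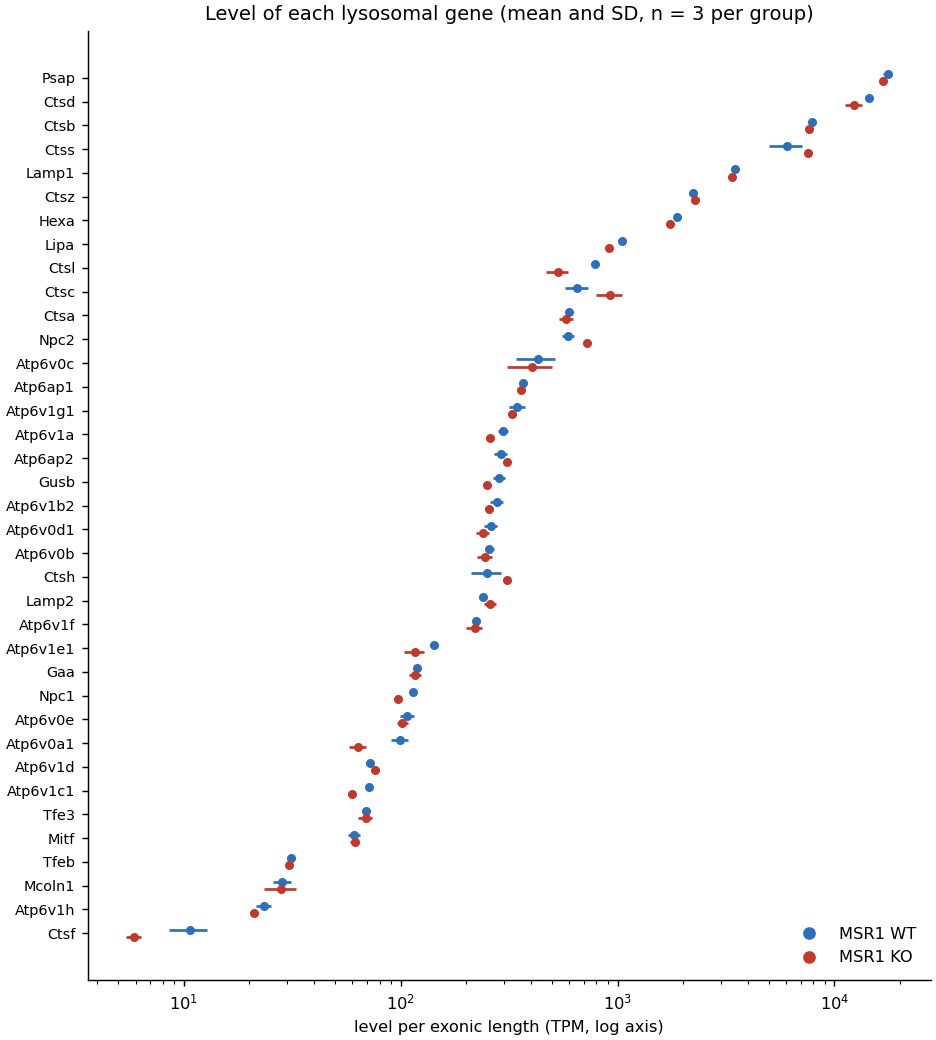
Level per exonic length of each gene (TPM, log axis), as the mean and SD of 3 libraries for MSR1 WT and MSR1 KO, ordered by the MSR1 WT level. The genes run from Ctsf at the bottom to Psap at the top, and the blue and red points lie close together for most of them.

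Among the 5 genes of the V0 sector, 1 fell and 4 were not called. Atp6v0a1 (ENSMUSG00000019302.16, chromosome 11 from 101009452 to 101063719, GRCm38) encodes an isoform of the large a subunit, which lines the path of the protons. Its level was 146, 122 and 131 CPM in MSR1 KO and 196, 188 and 219.9 CPM in MSR1 WT libraries. Every MSR1 KO value was thus below every MSR1 WT value, with means of 133 ± 11.9 and 201 ± 16.7 CPM (SD, n = 3 each). The level fell by 33.8%, a log2 fold change of -0.59 (SE 0.093, adjusted p = 0.0186). The adjusted p of Atp6v0a1 stayed under 0.05 in 5 of the 6 fits that left out 1 library, and was 0.0737 without MSR1 WT replicate 1.

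The other V0 members moved little. Atp6v0b, a proteolipid of the rotor ring, had a log2 fold change of -0.02 (interval of 2 SE from -0.17 to 0.13), and Atp6v0e, a small membrane subunit, one of -0.02 (from -0.19 to 0.15). Atp6v0d1, which joins the ring to the central stalk, was at 138, 123 and 151 CPM in MSR1 KO and 145, 155 and 135 CPM in MSR1 WT libraries, so the groups overlapped (log2 fold change -0.08, SE 0.093, adjusted p = 0.737). Atp6v0c, the main proteolipid of the ring, varied most within groups. MSR1 KO replicate 2 (316 CPM) and MSR1 WT replicate 3 (338 CPM) were low and the other 4 libraries lay between 483 and 519 CPM, so that its SE was 0.21. Its reads may also be shared with the processed pseudogene Atp6v0c-ps2, which matched it at 99.74% of 387 aligned bases and held counts equal to 10.6% of those of Atp6v0c.

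The a and d subunits exist as several isoforms from separate genes, of which Atp6v0a1 and Atp6v0d1 are the members here. Tcirg1, which encodes the a isoform of osteoclast and macrophage lysosomes, was at 462, 489 and 451 CPM in MSR1 KO and 384, 403 and 421 CPM in MSR1 WT libraries. The groups did not overlap, but the log2 fold change of 0.21 (SE 0.067, adjusted p = 0.122) was not called. Of all a-isoform transcripts per length, Atp6v0a1 made up 15.8 ± 1.56% in MSR1 KO and 24.6 ± 1.07% in MSR1 WT libraries, and Tcirg1 78.9 ± 1.47% and 70.2 ± 1.06% (SD, n = 3 each, p = 0.1 for each by a two-sided exact permutation test, which is the smallest p that 3 against 3 libraries allow). Atp6v0a2 made up 5.32 ± 0.234% and 5.21 ± 0.0724% (SD, n = 3 each). For the d subunit, the isoform Atp6v0d2, which is enriched in osteoclasts, was at 66.1, 57.5 and 64.7 CPM in MSR1 KO and at 169, 149 and 208 CPM in MSR1 WT libraries. This was the largest fall among the tested V-ATPase genes of both lists (log2 fold change -1.48, SE 0.13, adjusted p = 0.00318). With Atp6v0d1 little changed, the share of Atp6v0d1 among d-isoform transcripts was 76.8 ± 1.02% in MSR1 KO and 55.7 ± 5.84% in MSR1 WT libraries (SD, n = 3 each, exact permutation p = 0.1), without overlap.

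**Figure D3:**
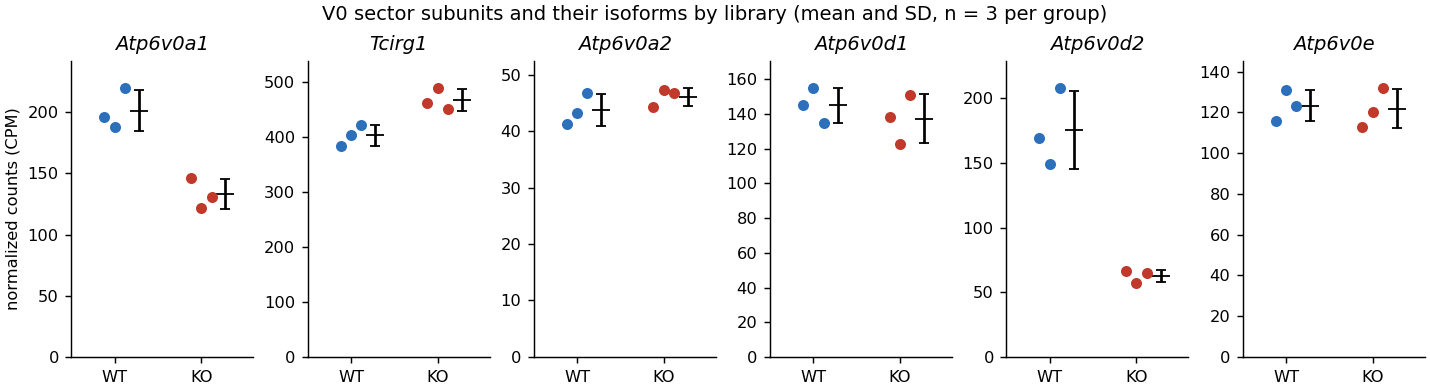
Normalized counts (CPM, from 0) of V0 sector genes in each library, with points for the 3 MSR1 WT (blue) and 3 MSR1 KO (red) libraries and the mean and SD beside them. Atp6v0a1 and Atp6v0d2 are lower in all 3 MSR1 KO libraries, Tcirg1 is slightly higher, and Atp6v0a2, Atp6v0d1 and Atp6v0e overlap.

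In the V1 sector, 0 of 8 genes were called and the median log2 fold change was -0.08. The members with the lowest values were Atp6v1e1, a peripheral stalk subunit, and Atp6v1c1, which links the stalks to V0. Atp6v1e1 was at 138, 166 and 155 CPM in MSR1 KO and 187, 172 and 187 CPM in MSR1 WT libraries (log2 fold change -0.25, SE 0.086, adjusted p = 0.154). Atp6v1c1 was at 108, 99.9 and 112 CPM against 125, 126 and 123 CPM (log2 fold change -0.23, SE 0.071, adjusted p = 0.123). Atp6v1a, the catalytic ATPase subunit, was at 509.5, 471 and 521 CPM against 557, 583 and 528 CPM (log2 fold change -0.15, SE 0.07, adjusted p = 0.29). All 3 genes thus had every MSR1 KO value below every MSR1 WT value without passing the adjusted test. The same separation was found for 13.4% of all tested genes. The remaining 5 overlapped between the groups. These were the non-catalytic ATP-binding subunit Atp6v1b2 (-0.07), the rotor subunits Atp6v1d (0.13) and Atp6v1f (0.02), the peripheral stalk subunit Atp6v1g1 (-0.02) and the regulatory subunit Atp6v1h (-0.09). The summed CPM of the 8 V1 genes was 1567 ± 46.1 in MSR1 KO and 1687 ± 19.2 in MSR1 WT libraries (SD, n = 3 each), and that of the 5 V0 genes was 992 ± 138 and 1082 ± 94.5 CPM. Neither accessory subunit was called. Atp6ap1 was at a log2 fold change of 0.02, and Atp6ap2, also known as the prorenin receptor, was at 249, 254 and 270.0 CPM against 222, 235 and 247 CPM (log2 fold change 0.14, SE 0.07, adjusted p = 0.352).

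The 9 cathepsins had the largest values in both directions, with 1 called higher, 2 called lower and a median log2 fold change of 0.00. Ctsl (ENSMUSG00000021477.9, chromosome 13 from 64359337 to 64370890) encodes a cysteine endopeptidase of broad specificity. Its level was 1089, 948 and 1272 CPM in MSR1 KO and 1565, 1552 and 1631 CPM in MSR1 WT libraries. The MSR1 WT values lay within a narrow range above all MSR1 KO values, and the log2 fold change was -0.52 (SE 0.1, adjusted p = 0.0306). Ctsf (ENSMUSG00000083282.2, chromosome 19 from 4855129 to 4860912) encodes another cysteine protease, with a long propeptide. It was at 9.21, 10.1 and 9.23 CPM in MSR1 KO and at 17.5, 19.7 and 13 CPM in MSR1 WT libraries. MSR1 WT replicate 3 was the lowest of its group but still above all MSR1 KO libraries, and the log2 fold change was -0.82 (SE 0.16, adjusted p = 0.0318). Both kept their direction in each fit that left out 1 library. The adjusted p of Ctsl stayed under 0.05 without MSR1 KO replicate 3 (0.0188) and was 0.0532 to 0.112 without each of the other 5 libraries, and that of Ctsf stayed under 0.05 without MSR1 WT replicate 3 (0.0094) and was 0.067 to 0.123 without each of the other 5. Ctsl shares 26.8% of its exonic bases with Gm47123 on the opposite strand, and the strand setting of the counting is not given in the sources used here.

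Ctsc (ENSMUSG00000030560.17, chromosome 7 from 88278085 to 88310888) rose. It encodes dipeptidyl peptidase I, which activates granule serine proteases, and was at 1686, 1895 and 1540.3 CPM in MSR1 KO and at 1239.6, 1003 and 1279.5 CPM in MSR1 WT libraries. The groups did not overlap, and the log2 fold change was 0.54 (SE 0.11, adjusted p = 0.0352), a level 45.4% higher. The adjusted p of Ctsc stayed under 0.05 without MSR1 KO replicate 3 or MSR1 WT replicate 3 and was 0.0837 to 0.11 without each of the other 4 libraries. A pair of further cathepsins lay higher in all 3 MSR1 KO libraries without being called. Ctss, a cysteine protease that cuts the invariant chain of MHC class II, was at 3139.8, 3261 and 3445 CPM against 2560.3, 2102 and 2970.2 CPM (log2 fold change 0.37, SE 0.12, adjusted p = 0.129). Ctsh, an aminopeptidase, was at 434, 436 and 469 CPM against 360.4, 291 and 400.0 CPM (log2 fold change 0.35, SE 0.11, adjusted p = 0.132). For Ctsc, Ctss and Ctsh alike, MSR1 WT replicate 2 was the lowest and MSR1 WT replicate 3 the highest of the MSR1 WT libraries. Without MSR1 WT replicate 3, the adjusted p of Ctss was 0.0418.

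The other 4 cathepsins were not called. Ctsb, a cysteine protease with endopeptidase and exopeptidase activity, was at 14819 ± 760.4 CPM in MSR1 KO and 14816 ± 416 CPM in MSR1 WT libraries (SD, n = 3 each), so its log2 fold change was 0.00 with an interval of 2 SE from -0.12 to 0.12. Ctsa, the protective protein of β-galactosidase and neuraminidase, was also at 0.00 (from -0.16 to 0.17), and the carboxypeptidase Ctsz was at 0.07 (from -0.07 to 0.21). Ctsd was at 9089.7, 8222 and 10534 CPM in MSR1 KO and 10770.5, 10832 and 9913 CPM in MSR1 WT libraries. MSR1 KO replicate 3 lay above MSR1 WT replicate 3, so the groups overlapped (log2 fold change -0.18, SE 0.093, adjusted p = 0.355). Ctsd shares 34.4% of its exonic bases with Gm49369 on the same strand, so its reads could have been split.

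**Figure D4:**
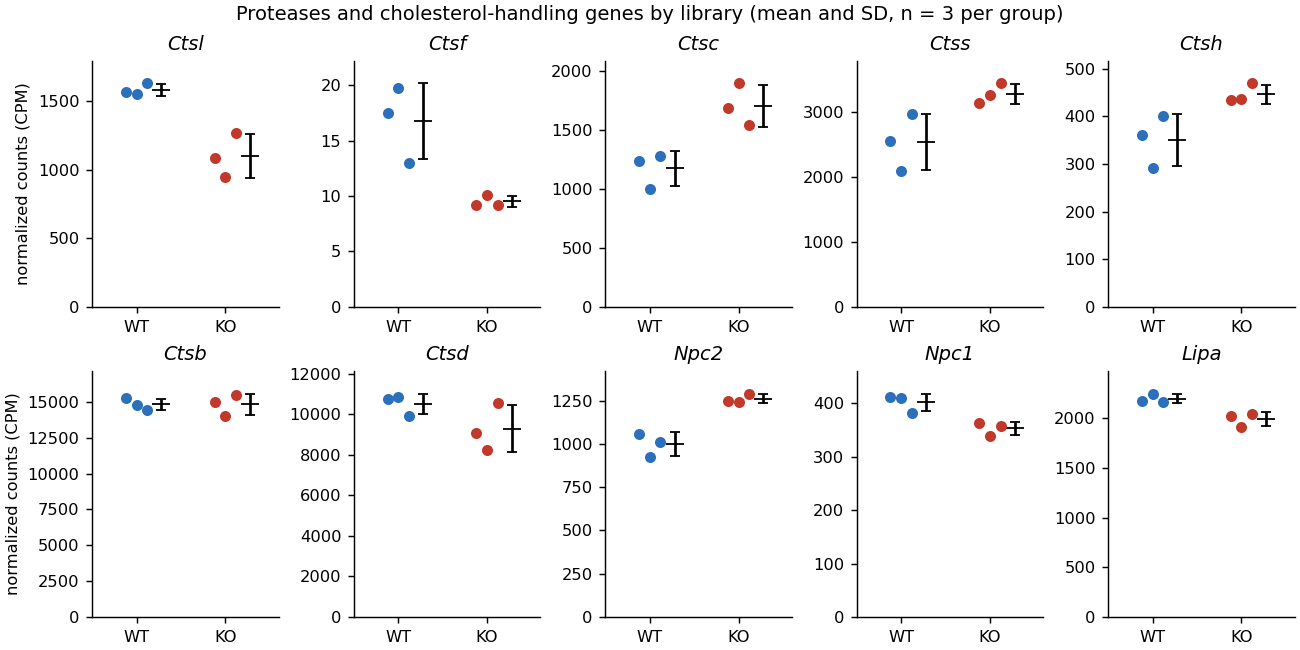
Normalized counts (CPM, from 0) of 7 cathepsins and of Npc2, Npc1 and Lipa in each library, with points for the 3 MSR1 WT (blue) and 3 MSR1 KO (red) libraries and the mean and SD beside them. Ctsl and Ctsf are lower and Ctsc and Npc2 higher in all 3 MSR1 KO libraries, Ctss, Ctsh, Npc1 and Lipa do not overlap but were not called, and Ctsb and Ctsd overlap.

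Ratios within a library do not depend on the scaling between libraries. These ratios were chosen after the values had been seen and are given as a description of the balance between members. There were 0.336 ± 0.0404 Ctsl counts per Ctss count in MSR1 KO and 0.633 ± 0.0966 in MSR1 WT libraries, and 0.657 ± 0.163 Ctsl counts per Ctsc count against 1.36 ± 0.161 (SD, n = 3 each). The count of Ctsl was thus below that of Ctsc in each MSR1 KO library (ratios 0.646, 0.5 and 0.826) and above it in each MSR1 WT library (ratios 1.26, 1.55 and 1.27). Counts do not allow for gene length, and the order per length depended on the length used. By exonic length, mean Ctsl was at 529.7 against 921 TPM for Ctsc in MSR1 KO and 787 against 652 TPM in MSR1 WT libraries. With the principal transcript Ctsl was below Ctsc in both groups (433 against 1666 TPM and 646 against 1185 TPM). The ratio of Ctsc to Ctsb, whose level was nearly the same in both groups, was 0.116 ± 0.0182 against 0.0793 ± 0.0106 (SD, n = 3 each).

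Of the 7 hydrolases and lipid-handling genes, 1 rose and 6 were not called, with a median log2 fold change of -0.06. Npc2 (ENSMUSG00000021242.9, chromosome 12 from 84754562 to 84773152) encodes the soluble protein that binds cholesterol in the lumen and hands it to the membrane protein NPC1. It was at 1248, 1244 and 1292 CPM in MSR1 KO and at 1059.7, 925 and 1011 CPM in MSR1 WT libraries. The MSR1 KO libraries agreed closely and lay above all MSR1 WT libraries, with a log2 fold change of 0.34 (SE 0.069, adjusted p = 0.0337), a level 26.3% higher. The adjusted p of Npc2 was 0.0679 to 0.117 with any 1 library left out, with the log2 fold change between 0.28 and 0.38. Its partner Npc1 had the opposite sign and was not called, at 362, 338 and 358 CPM against 412, 410.0 and 382 CPM (log2 fold change -0.19, SE 0.065, adjusted p = 0.164). The ratio of Npc2 to Npc1 counts was 3.58 ± 0.12 in MSR1 KO and 2.49 ± 0.207 in MSR1 WT libraries (SD, n = 3 each). Neither gene overlapped between the groups and their signs were opposite, so the ratio could not overlap and is no separate result.

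Lipa, the lysosomal acid lipase that frees cholesterol from its esters, was at 2018, 1913 and 2045 CPM in MSR1 KO and 2176, 2247 and 2159 CPM in MSR1 WT libraries. The groups did not overlap, at a log2 fold change of -0.14 (SE 0.058, adjusted p = 0.244). Gusb, the β-glucuronidase, was at 360.0, 361 and 372 CPM against 395, 429.8 and 382 CPM, again without overlap (log2 fold change -0.14, SE 0.068, adjusted p = 0.311). The remaining 3 overlapped between the groups and had intervals on both sides of 0. Psap was at -0.04 (interval of 2 SE from -0.16 to 0.09), Hexa, the α subunit of β-hexosaminidase, at -0.06 (from -0.21 to 0.08), and Gaa, the acid α-glucosidase that degrades glycogen, at 0.02 (from -0.14 to 0.18).

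None of the 3 membrane proteins was called. Lamp1, the major glycoprotein of the lysosomal membrane, was at 2873 ± 160.5 CPM in MSR1 KO and 2882 ± 87 CPM in MSR1 WT libraries (SD, n = 3 each), so its log2 fold change was -0.00 with an interval of 2 SE from -0.13 to 0.12. Lamp2, which also serves chaperone-mediated autophagy, was at 763, 827 and 782 CPM against 729.6, 669 and 723 CPM. All MSR1 KO values of Lamp2 were higher, by a log2 fold change of 0.16 (SE 0.066, adjusted p = 0.234). Mcoln1, a cation channel that releases calcium from the lysosome, was at 80.1, 59.5 and 64 CPM against 66.7, 60.5 and 73.2 CPM. The groups overlapped, and the interval of its log2 fold change was wide (from -0.23 to 0.27).

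The transcripts of the 3 regulators were at nearly the same level in both genotypes, and 0 of 3 were called by edgeR or by DESeq2. At an unadjusted p under 0.05 by edgeR there were 0 of 3, beside 3096 of all 16402 tested genes. Tfeb was at 53.7, 53.3 and 60 CPM in MSR1 KO and 54.9, 53 and 57.3 CPM in MSR1 WT libraries (log2 fold change 0.02, interval of 2 SE from -0.15 to 0.18). Tfe3 was at 204, 213 and 196 CPM against 211, 192 and 194 CPM (0.04, from -0.10 to 0.18). Mitf was at 124, 123 and 119.6 CPM against 117, 111 and 125 CPM (0.05, from -0.09 to 0.20). The 3 genes overlapped between the groups, and these RNA levels carry no information on the phosphorylation or location of the proteins.

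Promoter sequences were searched for the E-box that MiT/TFE factors bind. The members were chosen by symbol and not by promoter sequence. These factors are known to bind near many lysosomal genes, so a high share among the members is no independent result. The windows were those of RefSeq on GRCm38.p6, from 250 bases before to 50 bases after an annotated start site, and 30 of the 37 members had at least 1. The letters CACGTG were present in a window of 11 of these 30 members (36.7%), against 8.09% of 27025 genes with a window and 11.4% of the 10952 tested genes among them. The longer form TCACGTGA, each match of which also contains CACGTG, was present for 6 of 30 members (20%), against 1.12% of all genes and 2.08% of tested genes. Both motifs read the same on both strands. The 6 members with TCACGTGA were Atp6v0d1, Atp6v0e, Atp6v1a, Ctsa, Ctsd and Mcoln1, none of which was called, and the stretch around each match is shown because it carries this shared feature. It lies at chr8:105566041-105566088 (minus strand) for Atp6v0d1, at chr17:26676378-26676425 (plus strand) for Atp6v0e, at chr16:44139364-44139411 (minus strand) for Atp6v1a, at chr2:164833740-164833802 (plus strand, the second of its annotated start sites) for Ctsa, at chr7:142387899-142387946 (minus strand) for Ctsd, and at chr8:3500453-3500500 (plus strand) for Mcoln1. The start sites used for Atp6v1a and Ctsa lay 446 and 900 bases inside the deposited gene span. Each stretch is written 5′ to 3′ with TCACGTGA in capitals.
Atp6v0d1: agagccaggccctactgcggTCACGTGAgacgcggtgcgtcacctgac
Atp6v0e: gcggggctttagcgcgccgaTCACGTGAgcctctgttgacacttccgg
Atp6v1a: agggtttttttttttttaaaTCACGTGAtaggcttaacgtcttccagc
Ctsa: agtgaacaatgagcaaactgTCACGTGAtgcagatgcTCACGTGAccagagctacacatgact
Ctsd: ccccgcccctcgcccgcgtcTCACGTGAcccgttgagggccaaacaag
Mcoln1: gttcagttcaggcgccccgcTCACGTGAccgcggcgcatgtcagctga

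Ctsa held 2 copies of the motif in this stretch, and the other 5 held 1. The shared letters stood in windows around the start sites of genes of the proton pump, of proteolysis and of calcium release. They lay after the annotated start site for Atp6v0e and for 1 copy of Ctsa, and they spanned it for Atp6v0d1. A match describes these letters only and does not show that a factor was bound.

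All 5 called members had a window, and 0 of them held TCACGTGA, against 6 of the 25 members that were not called. The shorter CACGTG was present for 2 of the 5 called members (40%), Ctsf and Ctsl, and for 9 of the 25 others (36%). For Ctsf, Ctsc and Npc2 the annotated start site lay within 40 bases of the start of the gene in the deposited table, and the 250 bases before it are shown, to set a called gene with an E-box beside those without. They lie at chr19:4854915-4855164 (plus strand), chr7:88277835-88278084 (plus strand) and chr12:84773113-84773362 (minus strand), with CACGTG in capitals where present. The annotated start sites of Ctsl and Atp6v0a1 lay 370 and 946 bases inside the deposited gene span, so their windows do not reach its outermost start, and they are not shown.
Ctsf: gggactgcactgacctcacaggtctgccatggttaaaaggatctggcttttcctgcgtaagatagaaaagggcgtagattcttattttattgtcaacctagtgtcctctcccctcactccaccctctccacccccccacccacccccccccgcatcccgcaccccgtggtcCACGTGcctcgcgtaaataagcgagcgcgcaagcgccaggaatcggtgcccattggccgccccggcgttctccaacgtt
Ctsc: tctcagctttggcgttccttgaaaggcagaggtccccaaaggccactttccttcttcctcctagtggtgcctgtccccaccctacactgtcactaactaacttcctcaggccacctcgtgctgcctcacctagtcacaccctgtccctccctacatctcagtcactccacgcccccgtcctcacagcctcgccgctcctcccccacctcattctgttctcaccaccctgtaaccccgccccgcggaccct
Npc2: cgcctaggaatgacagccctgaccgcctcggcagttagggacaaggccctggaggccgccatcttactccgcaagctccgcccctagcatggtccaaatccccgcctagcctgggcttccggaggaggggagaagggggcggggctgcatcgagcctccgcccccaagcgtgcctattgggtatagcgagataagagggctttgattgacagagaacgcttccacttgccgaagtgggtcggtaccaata

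The E-box of Ctsf stood 79 bases before its start site, and the windows of Ctsc and Npc2 held none. Neither did that of Atp6v0a1, so genes that fell were found both with and without these letters in the windows searched. The window of Atp6v0a1 does not reach the outermost start of its gene, and whether these letters stand there was not tested.

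Further genes of the lysosome, of sorting to it and of autophagy were read from 8 lists with 132 genes, of which 120 were tested. In them 3 genes were called higher (Ctsw, Slc15a3 and Uvrag) and 7 lower (Atp6v0d2, Acp5, Ctsk, Asah1, Sort1, Igf2r and Cd63), beside 2.25% and 2.66% of all tested genes, and the median log2 fold change was 0.02. As in the members, most genes were not called and those called went in both directions. Among 10 other proteases, Ctsk, a collagen-degrading cathepsin of osteoclasts, fell from 7.49 ± 0.684 to 4.16 ± 0.4 CPM (SD, n = 3 each, log2 fold change -0.85, SE 0.16, adjusted p = 0.0272), and Ctsw, a cathepsin known from cytotoxic lymphocytes, rose from 3.14 ± 1.43 to 7.56 ± 0.537 CPM (1.27, SE 0.29, adjusted p = 0.0496). Among 29 other hydrolases, Asah1, the acid ceramidase, fell by 0.66 on the log2 scale (SE 0.13, adjusted p = 0.0304) and Acp5, the tartrate-resistant acid phosphatase, fell by 0.98 (SE 0.18, adjusted p = 0.0267).

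Of the 15 sorting genes, 2 were lower. Sort1, which encodes sortilin, was at 110.1, 105 and 106 CPM in MSR1 KO and 165, 186 and 155 CPM in MSR1 WT libraries (log2 fold change -0.65, SE 0.083, adjusted p = 0.0111), and Igf2r, the cation-independent mannose 6-phosphate receptor, was at 149, 150.5 and 125 CPM against 181, 208 and 181 CPM (-0.43, SE 0.098, adjusted p = 0.0483). The other 13 were not called, among them the cation-dependent mannose 6-phosphate receptor M6pr (0.09, SE 0.076), and the median of the 15 was 0.03. Of 24 tested membrane proteins, the tetraspanin Cd63 fell by 0.39 on the log2 scale (SE 0.084, adjusted p = 0.04) and the peptide and histidine transporter Slc15a3 rose by 0.66 (SE 0.11, adjusted p = 0.0206). Of 16 autophagy genes, Uvrag rose by 0.32 (SE 0.073, adjusted p = 0.0493). Of the 17 tested genes of nutrient sensing around the MiT/TFE factors, 0 were called by edgeR. At an unadjusted p under 0.05 there were 3 of these 17, beside 3096 of all 16402 tested genes. Of 4 tested cystatins, which inhibit cysteine cathepsins, 0 were called, while 2 met the study's definition of a higher DEG, beside 3.59% of all tested genes. With 1 library left out, the genes called in the 8 lists were 0 to 2 higher and 1 to 5 lower, with the fewest without MSR1 WT replicate 1 (0 and 1).

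**Figure D5:**
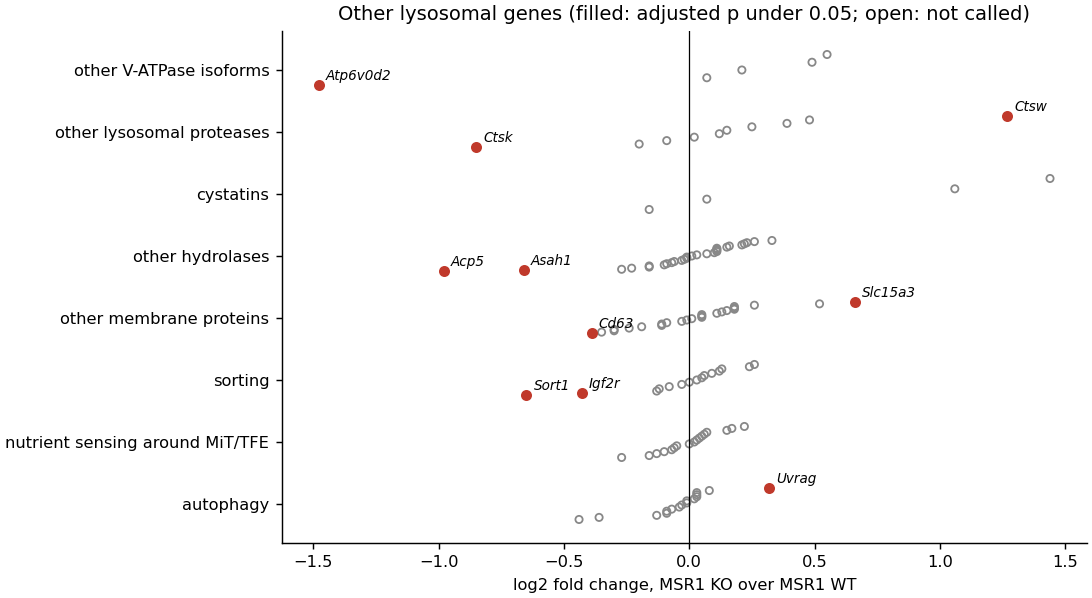
Log2 fold change (MSR1 KO over MSR1 WT) of the 120 tested genes in 8 further lysosomal lists, 1 list per row, with filled and named points for an adjusted p under 0.05. Of the 10 called genes, 7 lie to the left of 0, with Atp6v0d2 the farthest, and 3 lie to the right.

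Markers of other cells differed between the groups as well. The summed level of 10 stromal markers was 1783 to 2385 CPM in MSR1 KO and 2493 to 3116 CPM in MSR1 WT libraries, and 3 of the 10, Pdgfra, Pdgfrb and Acta2, were called lower, with none at 0. By the study's definition of a DEG, 4 of the 10 were lower and 1 was higher. Of the 7 markers not called, Col3a1 met it as lower (115 ± 20.2 against 181 ± 32.1 CPM, SD, n = 3 each, log2 fold change -0.65, SE 0.16). Thy1 and Lum had the opposite sign, and Thy1 met the study's definition of a higher DEG (6.43 ± 0.553 against 2.61 ± 1.52 CPM, SD, n = 3 each, log2 fold change 1.31, SE 0.37). The most abundant of them were Acta2 (503 ± 61.1 against 807 ± 109.8 CPM), Col1a2 (516 ± 85.5 against 678 ± 54.7 CPM) and Col1a1 (490.2 ± 87.4 against 585 ± 76.2 CPM; SD, n = 3 each). The summed level of 8 osteoclast markers was 418 to 545 CPM in MSR1 KO and 715 to 741 CPM in MSR1 WT libraries. Of these, Atp6v0d2, Acp5 and Ctsk were called lower, whereas Mmp9, which held most of the sum (406 ± 58.7 of 493 CPM in MSR1 KO and 511 ± 53.4 of 732 CPM in MSR1 WT libraries), overlapped and was not called, and Ocstamp had the opposite sign (0.70, SE 0.56). Calcr, the calcitonin receptor, had 0 counts in every library, and Oscar had 2 counts in 1 library. The summed level of 8 neutrophil markers was 635 to 1038 CPM in MSR1 KO and 419 to 798 CPM in MSR1 WT libraries, with 0 called by edgeR. At an unadjusted p under 0.05 there was 1 of these 8, beside 3096 of all 16402 tested genes. B cell markers summed to 15.4 to 22.9 CPM and erythroid markers to at most 0.696 CPM in any library. The stromal and osteoclast sums were lower in MSR1 KO libraries, as Atp6v0a1, Ctsl and Ctsf were, and the neutrophil mean was higher, as Ctsc was, and the part of these cells in those differences was not tested.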

How the data were processed

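RNA was sequenced from 3 MSR1 KO and 3 MSR1 WT macrophage libraries. The submitters' processing notes name fastp 0.17.1, HISAT2 2.1.0, DESeq2 1.18.1 and R 3.4.3, whereas the study's methods name TopHat and FPKM values. The values the authors deposited and used here are raw counts per gene, with 0 value columns left without a mapping. The deposited table also holds a signal column per library, made by dividing counts by size factors, and the log2 fold changes and p-values of the authors' own comparison, none of which was used here. The counting program and its strand setting are not given in the sources used here. Of 52550 gene identifiers, 52403 were found in GENCODE vM21 and 49909 had the same start and end, so positions are on GRCm38; 33 of the 37 members had the same span. Symbols were taken from the deposited table.

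In R 4.3.3 with edgeR 4.0.16, low counts were removed by filterByExpr, libraries were scaled by TMM, and all genes were fitted by glmQLFit and tested by glmQLFTest. The SE was obtained by dividing the log2 fold change by the root of the F statistic. The fit was tested on simulated counts. DESeq2 1.42.0, its size factors in edgeR, library size alone, other count filters, the replicate number as a block and leaving out each library were the alternatives. Libraries of a group differed by more than sampling noise. TPM used the union of exons, or the principal transcript, which was added after seeing the data. The members, the other lists and the marker lists were chosen with earlier results of these data known. Every member could be named, and of each other list the 5 most changed called genes of at least 1 CPM, as well as the most abundant markers. Tcirg1, Atp6v0a2, M6pr, Col3a1, Thy1, Lum, Mmp9, Ocstamp, Calcr and Oscar, and the genes that share reads with members, are named outside this rule, after their values were seen.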

Additional observations from a re-analysis of the deposited data

How the results depend on the processing

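The 5 called members kept their direction under all 12 alternatives, and no call was reversed. DESeq2's Wald test called 4 members higher, adding Ctsh (adjusted p = 0.0488) and Ctss (0.0425), and 3 lower, and over all genes it called 716 higher and 847 lower. Without a filter on low counts, 237 genes were higher and 288 lower, and the adjusted p of Ctsf was 0.05. With the replicate number as a block, 0 members were higher and 0 lower (adjusted p 0.0527 to 0.104 for the 5), and 59 and 78 of all genes were called. Whether the numbers pair the libraries is not given in the sources used here. The deviations of same-numbered libraries correlated at r = -0.0261, 0.0187 and -0.0048 across genes. This cannot decide the question, because each deviation is taken from a mean of only 3 libraries. With each library left out in turn, 0 to 2 members were higher and 0 to 2 lower, the study's definition gave 0 to 1 higher and 1 to 2 lower, and 18 to 407 of all genes were higher and 53 to 372 lower, with the fewest without MSR1 WT replicate 1. The median log2 fold change of the membrane proteins was then 0.00 to 0.11. In the other lysosomal lists, the 12 alternatives called 0 to 4 genes higher and 1 to 9 lower. The cause of these changes was not tested. The lowest count of any member in any library was 331, for Ctsf.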
